A study of Mus musculus with 12 samples.

Results

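The 10 genes described here mark lipid-associated macrophages (LAMs), the macrophages that take up and store fat in obese adipose tissue: Trem2, Cd9, Gpnmb, Spp1, Fabp5, Lgals3, Plin2, Capg, Adgre1 and Lgals1. They were chosen by symbol, as known LAM markers and with earlier results of these data known, and are 10 of the 49315 genes in the count table. Their RNA was measured by RNA-seq in epididymal white adipose tissue (eWAT, the visceral fat pad beside the epididymis) of 12 male mice, 3 in each of 4 groups. Flox mice (miR-181a2b2flox/flox) carry the Mir181a2b2 locus flanked by loxP sites and served as the genotype control, with no Cre driver named for them. KO mice (miR-181a2b2-/-) lack Mir181a-2 and Mir181b-2 in every cell type, so no cell type is singled out by the deletion. All 12 mice ate a diet with 60% fat for 12 weeks, so the comparisons are all within obesity. Mice of each genotype received a weekly intraperitoneal injection of vehicle (flox vehicle, KO vehicle) or of the antifolate methotrexate (MTX) at 1 mg/kg (flox MTX, KO MTX).

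In obese fat, macrophages gather around dying adipocytes and ingest their lipid. TREM2 is a lipid-sensing receptor on these cells that signals through the adaptor TYROBP and the kinase SYK, and it is needed for the LAM state to form. The program that accompanies it holds surface proteins (CD9, GPNMB, F4/80), secreted proteins (osteopontin, galectins), proteins that carry or coat lipid (FABP5, perilipin 2) and a large set of lysosomal enzymes.

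Library depth lay between 19495310 and 23976469 counts, and the lowest count of any member was 20 (Spp1 in flox MTX replicate 4), against the 3 counts that a count of 0 allows. This limit covers counting error only, not variation between mice. Levels, sums over lists included, are given in CPM (counts scaled to library size) with TMM factors. Adipocyte markers were abundant in all groups, their 12 genes summing to 11754 to 27693 CPM in flox vehicle mice and 8543 to 16242 CPM in KO vehicle mice. RNA of epididymis was also present, and unevenly: its 68 listed genes summed to 3252 to 26509 CPM in flox vehicle mice, 49.7 to 75.2 CPM in KO vehicle mice, 25.1 to 1161 CPM in flox MTX mice and 17.0 to 42.9 CPM in KO MTX mice. The 15 general macrophage markers summed to 627 to 1199, 4240.1 to 6843, 1123 to 5753 and 5923 to 9523 CPM in the same order. The deletion itself could not be checked in these libraries, since the Mir181b-2 precursor had 0 counts in all of them and the Mir181a-2 precursor had 2 counts in flox MTX replicate 4 and 0 elsewhere. Among the members, the wide group was flox MTX: its replicate 4 held the lowest value of all 12 libraries for 6 genes (Trem2, Cd9, Gpnmb, Spp1, Lgals3 and Capg), while its replicate 2 held the highest value of the group for 7 of the 10.

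The mature miRNAs of the deleted locus are shown because their seed, bases 2 to 8 in capitals, is the part that pairs with a target RNA (RefSeq, GRCm38.p6). Mir181a-2 lies at chr2:38852741-38852763 and Mir181b-2 at chr2:38853845-38853868, both on the plus strand.
miR-181a-5p: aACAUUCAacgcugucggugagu
miR-181b-5p: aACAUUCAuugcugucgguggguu
Both carry the seed ACAUUCA, which is also that of the miR-181c-5p and miR-181d-5p of the locus on chromosome 8, and the a and b forms are made from a further locus on chromosome 1 that the KO mice keep. The matching letters TGAATGT were found in 0 of the 10 members' longest annotated 3′ UTRs (GENCODE M21). These were 108 to 487 bases long, except for Gpnmb with 1868 bases. Of 21010 genes, whose UTRs had a median length of 960 bases, 16.4% held the letters, so the lengths compared are unlike. Absence of these letters says nothing about the miRNA beyond this window.

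Promoter windows (250 bases before to 50 after the start site, RefSeq, GRCm38.p6) were on hand for 7 members, all but Fabp5, Adgre1 and Lgals1. They were searched on both strands for CACGTG (the E-box core), GAGGAA (a PU.1-type core) and TGANTCA (an AP-1-type site), letters held by 7.15%, 28.3% and 7.81% of all 32851 windows. The windows of Trem2 and Gpnmb are shown because these genes had the largest differences between KO and flox mice, and that of Plin2 because it alone held CACGTG. Capitals mark the matches.
Trem2, chr17:48346151-48346450, plus strand: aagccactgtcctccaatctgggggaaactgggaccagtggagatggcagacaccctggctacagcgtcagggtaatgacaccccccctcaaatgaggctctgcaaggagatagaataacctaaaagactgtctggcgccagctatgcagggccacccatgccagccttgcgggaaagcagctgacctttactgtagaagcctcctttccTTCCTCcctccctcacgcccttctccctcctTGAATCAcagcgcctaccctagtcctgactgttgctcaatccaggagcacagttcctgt
Gpnmb, chr6:49036268-49036567, plus strand: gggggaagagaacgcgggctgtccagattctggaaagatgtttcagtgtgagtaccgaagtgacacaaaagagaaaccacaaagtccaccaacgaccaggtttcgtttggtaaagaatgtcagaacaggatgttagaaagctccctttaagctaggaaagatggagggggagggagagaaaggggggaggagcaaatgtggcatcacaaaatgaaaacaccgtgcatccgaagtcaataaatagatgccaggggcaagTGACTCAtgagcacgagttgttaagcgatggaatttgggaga
Plin2, chr4:86670010-86670309, minus strand: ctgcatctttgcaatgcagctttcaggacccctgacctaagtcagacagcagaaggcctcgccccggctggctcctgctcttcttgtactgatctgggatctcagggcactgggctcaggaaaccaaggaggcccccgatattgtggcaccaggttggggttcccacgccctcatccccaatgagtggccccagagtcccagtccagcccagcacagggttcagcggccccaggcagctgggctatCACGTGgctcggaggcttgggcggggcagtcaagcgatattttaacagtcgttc
TGANTCA was thus held by Trem2, 9 bases before its start site, and by Gpnmb, beginning at base 9 after its own. Trem2 also held GAGGAA in reverse, Spp1 held it forward 113 bases before its start in 1 of its 2 windows, and the windows of Capg, Cd9 and Lgals3 held none of the 3 motifs. These matches describe letters only.

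The genes lie on 7 chromosomes (GRCm38, GENCODE M21), all are protein coding, and counts cover their exons. On the plus strand are Trem2 (ENSMUSG00000023992, chr17:48346401-48354147), Adgre1 (ENSMUSG00000004730, chr17:57358691-57483527), Gpnmb (ENSMUSG00000029816, chr6:49036546-49070929), Capg (ENSMUSG00000056737, chr6:72544391-72562983), Spp1 (ENSMUSG00000029304, chr5:104435118-104441050), Fabp5 (ENSMUSG00000027533, chr3:10012548-10016607), Lgals3 (ENSMUSG00000050335, chr14:47367751-47386160) and Lgals1 (ENSMUSG00000068220, chr15:78926725-78930465). Cd9 (ENSMUSG00000030342, chr6:125460266-125494791) and Plin2 (ENSMUSG00000028494, chr4:86648386-86670060) are on the minus strand. Near-identical copies took few reads: the Fabp5 pseudogenes Gm14328 and Gm6166 had at most 14 and 19 counts in a library, the Plin2 copy Gm12551 at most 8, and the antisense genes within Cd9 at most 24.

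Levels between genes were compared per kilobase of coding transcript. In flox vehicle mice Lgals1 stood first at 1675 CPM per kb, clear of Plin2 (222 CPM per kb), whose libraries overlapped those of Fabp5 (161 CPM per kb), which in turn overlapped Lgals3 (138 CPM per kb). Capg (53.6) and Cd9 (36.7) followed without overlap, then Trem2 (20.05) and Gpnmb (19.5), which overlapped, and last Adgre1 (8.23) and Spp1 (8.04), which also overlapped, all in CPM per kb. In KO vehicle mice the order at the head was Lgals1 (2335 CPM per kb), Lgals3 (1361) and Plin2 (803), each overlapping the next, and Gpnmb (363) and Trem2 (325) were no longer apart from Capg (373). These places depend on the length used, since for Trem2 and Fabp5, among others, all annotated exons together are longer than the coding transcript. Per kilobase of all exons, Trem2 was last of the 10 in flox vehicle mice. By that length, Lgals1, Lgals3 and Plin2 did not overlap in KO vehicle mice, and Trem2 lay below Capg without overlap.

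Whether loss of the miRNA locus goes with a change in LAM genes was first asked under vehicle. Of the 10 genes, 9 rose in KO against flox mice (edgeR, adjusted p below 0.1 and at least 1.5-fold), against 13.9% of the 18702 genes tested that rose. The groups did not overlap for the same number, 9 of 10, against 22.8% of all genes. The median log2 fold change of the members was 2.57, and that of all genes was -0.06. With 3 against 3 mice an exact two-sided permutation test cannot go below p = 0.1, so it adds nothing to the lack of overlap.

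**Figure D1:**
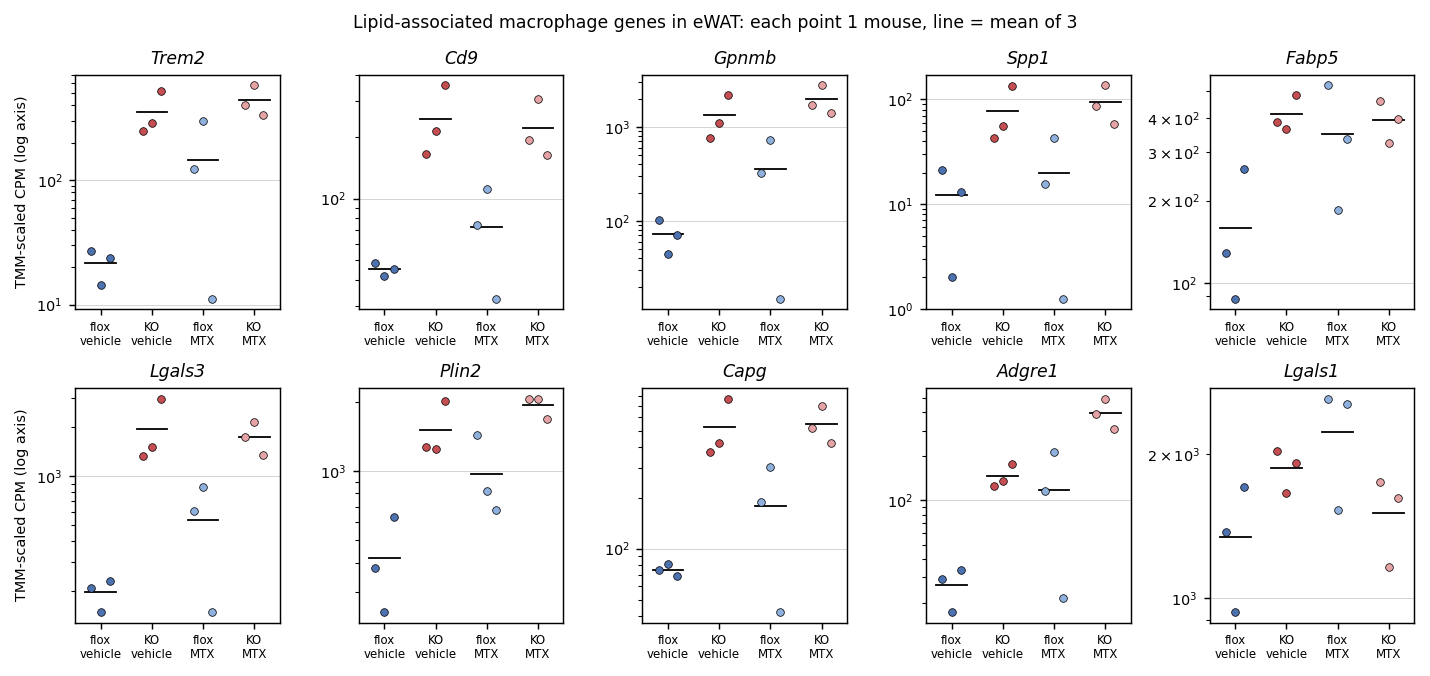
TMM-scaled CPM (log axis) of each of the 10 genes in the 4 groups, 1 point per mouse with a line at the mean of 3. In 9 panels, all but Lgals1, the KO vehicle mice lie above every flox vehicle mouse, and flox MTX replicate 4 is the lowest of all 12 for 6 genes.

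The lipid receptor and the surface glycoprotein differed most. Trem2 was counted at 27.2, 14.4 and 23.8 CPM in the flox vehicle mice (replicates 1, 3 and 4) and at 247, 288 and 526 CPM in the KO vehicle mice (replicates 1, 2 and 3), a 16.2-fold rise (log2 fold change 4.02, SE 0.87, 95% interval 2.11 to 5.93, adjusted p = 0.00669). Gpnmb, a transmembrane glycoprotein of lysosomes and the cell surface, was at 102, 43.9 and 70.7 CPM in the flox mice and at 769, 1098 and 2166 CPM in the KO mice, an 18.7-fold rise (log2 fold change 4.22, SE 1.02, adjusted p = 0.0106). The lowest KO mouse stood 9.07-fold above the highest flox mouse for Trem2 and 7.57-fold above it for Gpnmb.

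Cd9, a tetraspanin of the plasma membrane used to sort LAMs, was tight in flox vehicle mice at 48.2, 41.9 and 45.1 CPM and reached 166, 215 and 358 CPM in KO vehicle mice, a 5.46-fold rise (log2 fold change 2.45, SE 0.43, adjusted p = 0.0037). Adgre1 encodes F4/80, the general surface marker of mouse macrophages. It was at 29.0, 17.3 and 33.7 CPM in flox and at 125, 136 and 178 CPM in KO vehicle mice, which makes a 5.49-fold rise (log2 fold change 2.46, SE 0.61, adjusted p = 0.0124).

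Of the secreted proteins, galectin 3 (Lgals3, the Mac2 antigen used to stain macrophages in fat) was at 209, 149 and 228 CPM in flox and at 1324, 1495 and 2972 CPM in KO vehicle mice, a 9.87-fold rise (log2 fold change 3.30, SE 0.57, adjusted p = 0.0035). Spp1, which encodes the cytokine and matrix protein osteopontin, was the least certain rise. It stood at 21.4, 2.01 and 12.9 CPM in flox and at 42.8, 55.7 and 133 CPM in KO vehicle mice (log2 fold change 2.67, SE 1.01, adjusted p = 0.0687). The call was lost without flox vehicle replicate 3, flox vehicle replicate 4 or KO vehicle replicate 3 (adjusted p = 0.157, 0.124 and 0.213), the direction staying the same. Galectin 1 (Lgals1), which fibroblasts and many other cells make, was at 1374, 938 and 1709 CPM in flox and at 2030.5, 1660 and 1914 CPM in KO vehicle mice. These ranges overlapped, and its log2 fold change of 0.48 (95% interval -0.15 to 1.11, adjusted p = 0.233) did not pass the test.

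The lipid-handling pair rose by less. Plin2 coats lipid droplets in macrophages and many other cells. It was at 379, 245 and 632 CPM in flox and at 1269.6, 1252 and 2024 CPM in KO vehicle mice, a 3.62-fold rise (log2 fold change 1.86, SE 0.39, adjusted p = 0.00576). Fabp5, a fatty acid binding protein of the cytosol, was at 129, 88.1 and 261 CPM in flox and at 387, 366 and 485 CPM in KO vehicle mice, a 2.59-fold rise (log2 fold change 1.37, SE 0.42, adjusted p = 0.0307). Capg, which caps actin filaments in motile macrophages, was at 74.5, 81.4 and 69.3 CPM in flox and at 372, 423 and 774 CPM in KO vehicle mice, a 6.97-fold rise (log2 fold change 2.80, SE 0.57, adjusted p = 0.00526). In bulk tissue, more cells of a type and more RNA per cell cannot be told apart.

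**Figure D2:**
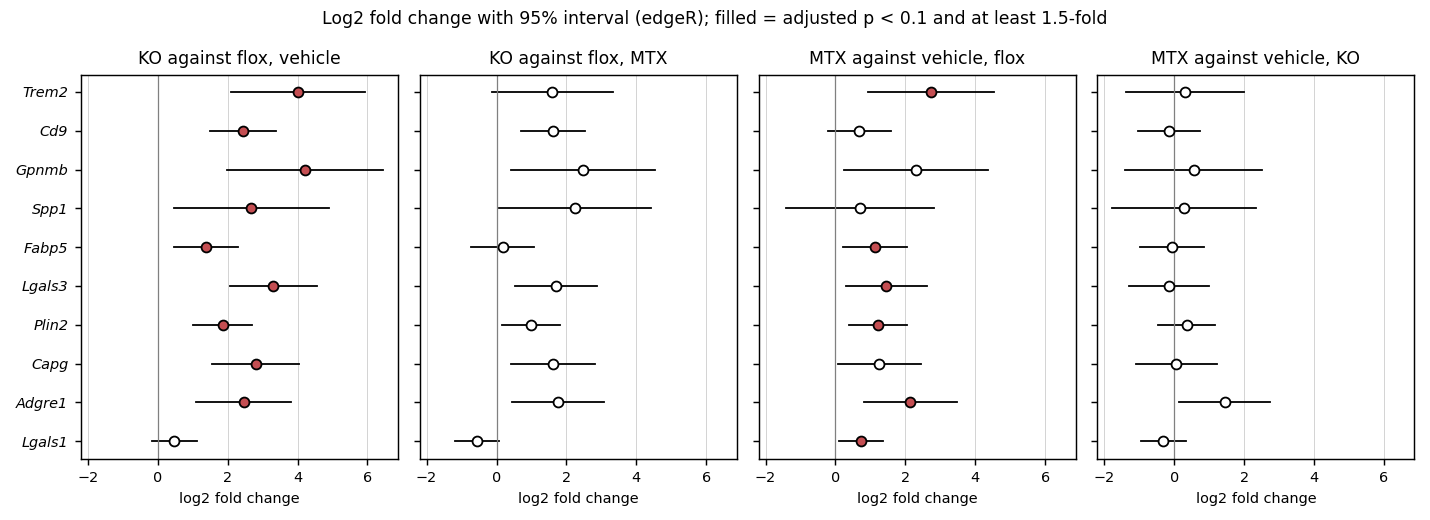
Log2 fold change of the 10 genes in the 4 comparisons with the 95% interval of the edgeR fit, filled where the adjusted p was below 0.1 and the change at least 1.5-fold. Under vehicle 9 of the 10 are filled, in flox mice given MTX 6 are, and in the other comparisons none is.

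Genes listed with Trem2 moved in the same direction. The list of 14 held genes of TREM2 signalling and shedding, and also Ms4a7, Trem1, Trem3 and Treml2. Of these 14, 12 were tested and 8 rose in KO vehicle mice, against 13.9% of all genes. None of them fell, and their median log2 fold change was 2.24. Tyrobp, the adaptor that carries the TREM2 signal, was at 31.5, 20.7 and 35.8 CPM in flox and at 233, 269 and 499 CPM in KO vehicle mice (log2 fold change 3.51, adjusted p = 0.00413). The kinase Syk rose by 2.29 on the log2 scale (adjusted p = 0.00484), the lipid phosphatase Inpp5d, which damps the pathway, by 2.42 (adjusted p = 0.00335) and the sheddase Adam17 by 0.94 (adjusted p = 0.00416). Adam10, the other sheddase, had a log2 fold change of 0.36 (adjusted p = 0.0986), under the fold limit, and Plcg2 of 0.79 (adjusted p = 0.169). Trem1 and Trem3 were too low to test.

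Of the 9 genes for receptor subunits of osteopontin, 5 rose and 0 fell, against 13.9% of all genes that rose and 17.8% that fell. Cd44, which binds osteopontin and hyaluronan, was 2.46 higher on the log2 scale (adjusted p = 0.00459) and the integrin subunit Itga5 2.19 higher (adjusted p = 0.00271), while Itgav had a log2 fold change of 0.27 (adjusted p = 0.403).

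Among 18 further LAM genes, 11 rose (13.9% of all genes rose), 0 fell and 7 did not pass, with a median log2 fold change of 1.43. Those that rose were Cd68 (log2 fold change 3.80), Mmp12 (3.93), the proton pump subunit Atp6v0d2 (3.78), Itgax (3.05), Pld3 (2.12), the acid lipase Lipa (2.09), Ctsz (1.96), Ctsl (1.47), Ctsb (1.46), Cd63 (1.39) and Ctsd (1.34). Those that did not pass were lipid genes that adipocytes also express, lysosomal genes and others. Fabp4 had a log2 fold change of 0.02 (adjusted p = 0.985), Lpl of 0.08 (adjusted p = 0.912) and Cd36 of 0.30 (adjusted p = 0.444), while Apoe stood at -0.22, Acp5 at -0.26, Npc2 at -0.68 and Lamp1 at 0.32, all with adjusted p above 0.1. Npc2 was at 2681 CPM in flox vehicle replicate 3, the library with the most epididymis RNA, and at most 1675 CPM in any other library. The part of that RNA in its value was not tested.

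Some relatives of single members rose with them and others did not, beside 13.9% of all genes that rose and 17.8% that fell. Plin2 rose, whereas 0 of the other 4 perilipins did, and their log2 fold changes lay between -0.94 (Plin4, adjusted p = 0.118) and 0.38 (Plin3, adjusted p = 0.059, under the fold limit). Of the 5 relatives of Fabp5 tested, 1 rose (Fabp7, at 0.868, 0.236 and 0.785 CPM in flox and 3.33, 2.96 and 8.20 CPM in KO vehicle mice), 1 fell (Fabp9) and 3 did not pass, Fabp4, the adipocyte form, among them. Of the 10 tetraspanins listed beside Cd9, 4 rose (Cd53, Cd37, Cd63 and Tspan4) and 1 fell (Cd82). Of the 6 gelsolin family relatives of Capg, 0 rose and 2 fell (Vil1 and Scin), and of the relatives of Adgre1, Adgre4 rose and Adgre5 fell. Of the 7 genes listed beside the galectins Lgals3 and Lgals1, 1 rose, 1 fell and 5 did not pass, near the shares of all genes. The galectin Lgals9 rose (log2 fold change 0.84, adjusted p = 0.00281) and the adipocyte galectin Lgals12 fell (-1.19, adjusted p = 0.0764). Differences between a member and its relatives were not tested. In flox vehicle replicates 1, 3 and 4, Adgre5 was at 184, 234 and 106 CPM and Cd82 at 70.0, 110 and 45.3 CPM. The epididymis genes summed to 9613, 26509 and 3252 CPM in the same mice. Fabp9 was at 9.72, 12.6 and 7.66 CPM there and at most 0.787 CPM in the other groups, and Vil1 and Scin were also highest there. The part of epididymis and testis RNA in these falls was not tested.

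Markers of several other cell types moved with the members. Against 13.9% of all genes that rose, the macrophage list rose in 13 of its 15 genes (median log2 fold change 2.72). The resident macrophage list rose in 6 of 8, the proliferation list in 9 of 10 and the osteoclast list in 4 of the 4 tested. Calcr and Oscar of the osteoclast list, at most 0.354 and 0.562 CPM in any library, were too low to test. Monocyte and dendritic markers rose in 3 of 8 genes. Mesothelial markers rose in 2 of 8, which ran from 0 to 5 with 1 library left out. Skeletal muscle markers rose in 1 of the 6 tested, near the share of all genes. Fibroblast markers rose in 8 of 9 genes (5 without flox vehicle replicate 3) and fell in 1, with sums of 1824 to 3587 CPM in flox and 7113 to 11323 CPM in KO vehicle mice, and endothelial markers in 8 of 10. Against 17.8% of all genes that fell, adipocyte markers fell in 4 of 12, epithelial markers in 7 of 7, epididymis genes in 34 of the 40 tested and testis germ cell genes in 18 of the 19 tested. The testis genes summed to 276 to 686 CPM in flox and 33.4 to 40.5 CPM in KO vehicle mice. Melanocyte markers, which matter because Gpnmb is also a melanosome gene, stayed at 1.82 to 5.43 CPM in sum over the 12 libraries. Tyr, Tyrp1 and Mlana were at 0 in 11, 9 and 2 of the 12 libraries, and Pmel and Dct in 0. With the epididymis and testis genes taken out of the table the count of members stayed at 9. That step left the members' own counts unchanged, so it cannot show what such tissue added to a library. Without flox vehicle replicate 3, the library with the most epididymis RNA, the count of members was 8. The part of the other cell types in these differences was not tested.

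**Figure D3:**
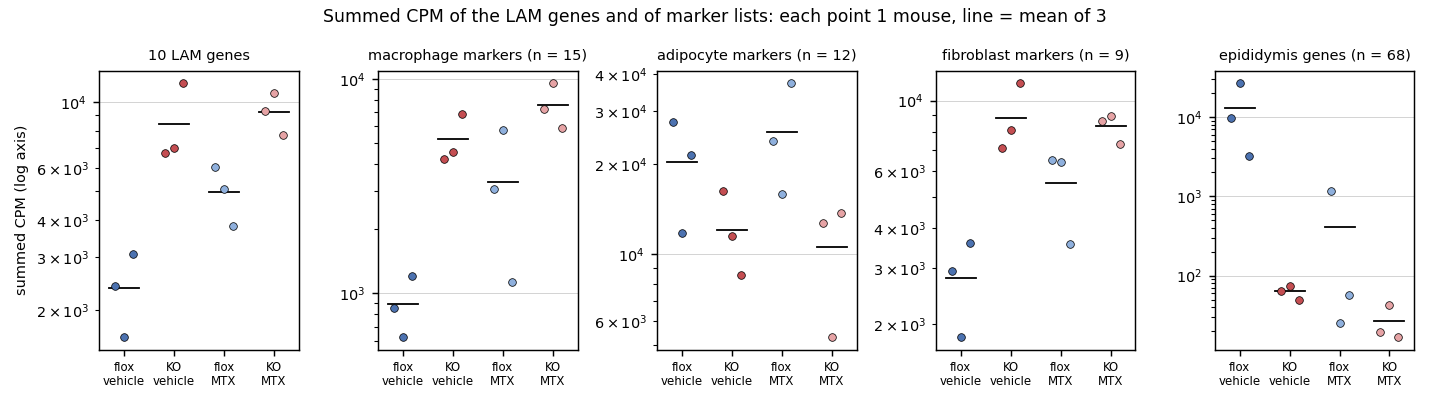
Summed CPM (log axis) of the 10 genes and of the marker lists for macrophages, adipocytes, fibroblasts and epididymis, 1 point per mouse with a line at the mean of 3. The sums of the members and of the macrophage markers are higher in every KO mouse than in every flox vehicle mouse, and the epididymis sum is at least 3252 CPM in flox vehicle mice and at most 1161 CPM in the others.

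Under MTX, KO and flox mice were compared again, with other mice than under vehicle. No gene of the 18702 passed edgeR's adjusted test (0%, smallest adjusted p = 0.104), so 0 of the 10 members did, although 4576 genes (24.5%) had an unadjusted p below 0.05, 7 of them members, and DESeq2 called 2769 genes, 6 of them members. The members stood at a median log2 fold change of 1.61, and 8 of the 10 did not overlap between the groups, all higher in KO MTX mice, against 14.7% of all genes. The values of Cd9 were 74.2, 111 and 32.5 CPM in flox MTX replicates 1, 2 and 4 and 192, 305 and 164 CPM in KO MTX replicates 2, 3 and 4 (log2 fold change 1.60, SE 0.42, adjusted p = 0.104). Those of Gpnmb were 326, 727 and 14.9 CPM against 1723, 2780.1 and 1402 CPM (log2 fold change 2.47, SE 0.94, adjusted p = 0.15). Trem2 stood at 124, 302 and 11.2 CPM against 406, 581 and 334 CPM (log2 fold change 1.60, SE 0.79, adjusted p = 0.236).

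For 7 of the 10 members the flox MTX mice spread more than any other group, and for Fabp5, Plin2 and Lgals1 the flox vehicle mice did. Gpnmb differed 48.8-fold between the highest and lowest mouse of that group and Trem2 27.0-fold, whereas in KO MTX mice the same spreads were 1.98-fold and 1.74-fold. Without flox MTX replicate 2, the library with the most macrophage RNA of its group, 8 members passed, 7 higher (Trem2, Cd9, Gpnmb, Spp1, Lgals3, Capg and Adgre1) and Lgals1 lower, beside 4064 genes in all. Cd9 also passed without flox vehicle replicate 3, a mouse of neither group (adjusted p = 0.0976).

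Fabp5 and Lgals1 were the members that overlapped. Fabp5 was at 526, 185 and 335 CPM in flox MTX and at 461, 324 and 397 CPM in KO MTX mice (log2 fold change 0.18, 95% interval -0.73 to 1.08). Lgals1 was the only member lower on average in KO mice, at 2607, 1527 and 2534 CPM in flox MTX and 1745, 1163 and 1615 CPM in KO MTX mice (log2 fold change -0.56, 95% interval -1.19 to 0.07, adjusted p = 0.254). Adgre1 was at 116, 216 and 21.4 CPM in flox MTX and at 391, 497 and 305 CPM in KO MTX mice (log2 fold change 1.75, adjusted p = 0.127). Lgals3 was at 614, 852 and 149 CPM against 1732, 2132 and 1340.5 CPM (log2 fold change 1.69, adjusted p = 0.117), Capg at 189, 304 and 42.3 CPM against 515, 699 and 419.9 CPM (1.61, adjusted p = 0.126).

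The effect of MTX in flox mice was the next question, against the same flox vehicle mice as above, so that these values and those under vehicle share their controls. By the same limits 6 of the 10 members rose (8.09% of all genes rose): Trem2 (log2 fold change 2.74, SE 0.82, adjusted p = 0.0401), Adgre1 (2.15, SE 0.61, adjusted p = 0.0326), Lgals3 (1.46, adjusted p = 0.0762), Plin2 (1.22, adjusted p = 0.0452), Fabp5 (1.13, adjusted p = 0.0799) and Lgals1 (0.73, adjusted p = 0.0995). Gpnmb (2.30, adjusted p = 0.108), Capg (1.25, adjusted p = 0.128), Cd9 (0.69, adjusted p = 0.263) and Spp1 (0.71, adjusted p = 0.631) did not pass. Only Plin2 had groups that did not overlap, at 1429, 818 and 679 CPM in flox MTX mice against 379, 245 and 632 CPM (10.9% of all genes did not overlap and were higher).

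These 6 calls rested on single libraries. With flox vehicle replicate 3 left out 0 members passed, with flox vehicle replicate 1 or flox MTX replicate 1 left out 2 did, with flox MTX replicate 2 left out 4 did, and with KO vehicle replicate 1 left out, a mouse of neither group, 4 did as well. A fit of the 6 flox libraries alone called 0. In Trem2, Cd9, Gpnmb, Lgals3 and Capg, flox MTX replicates 1 and 2 were above every flox vehicle mouse and replicate 4 was below every one of them, and in Adgre1 replicate 4 was within their range. The summed macrophage markers were at 3055 CPM in replicate 1, 5753 CPM in replicate 2 and 1123 CPM in replicate 4, the last within the range of the flox vehicle mice, and epididymis genes were at 1161 CPM, 25.1 CPM and 56.8 CPM; the part of either in the calls was not tested. Against 8.09% of all genes that rose, 9 of the 12 tested genes of the TREM2 list rose, 1 without flox vehicle replicate 3. Of the 18 further LAM genes 6 rose, 1 when flox vehicle replicate 3 was dropped and 11 when flox MTX replicate 4 was. Of the 15 macrophage markers 13 rose, 5 without flox vehicle replicate 3. Other cell types moved as well. Resident macrophage markers rose in 8 of 8 genes (3 without flox vehicle replicate 3), mesothelial markers in 7 of 8 (5 without it) and fibroblast markers in 5 of 9 (0 without it). Against 16.1% of all genes that fell, epithelial markers fell in 7 of 7, epididymis genes in 34 of the 40 tested (8 without flox vehicle replicate 3) and testis germ cell genes in 17 of the 19 tested. The part of these lists in the calls was not tested.

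In KO mice MTX against vehicle gave 0 calls among the members and 0 among the 18702 genes (0%, smallest adjusted p = 0.293), with 1491 genes (7.97%) at an unadjusted p below 0.05 and 281 called by DESeq2, 0 of them members. The median log2 fold change of the members was 0.17. Adgre1 was the only member with an unadjusted p below 0.05 and the only one whose groups did not overlap (11.1% of all genes were higher without overlap), at 391, 497 and 305 CPM in KO MTX against 125, 136 and 178 CPM in KO vehicle mice (log2 fold change 1.44, SE 0.59, 95% interval 0.14 to 2.74, adjusted p = 0.563). By contrast Cd9, at 192, 305 and 164 CPM against 166, 215 and 358 CPM, had a log2 fold change of -0.16 (95% interval -1.05 to 0.73), and Lgals3 of -0.15 (95% interval -1.30 to 0.99). Trem2 had a log2 fold change of 0.32 (95% interval -1.37 to 2.01) and Gpnmb of 0.55 (95% interval -1.41 to 2.51), intervals that leave room for changes of more than 2-fold either way.

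Whether MTX acted differently in the genotypes was asked with the interaction term. It passed in 0 of the 10 members and in 0.989% of all genes (185 genes), and 1 member had an unadjusted p below 0.05, as did 15% of all genes. All 10 estimates were negative, meaning a smaller log2 change with MTX in KO than in flox mice, from -0.43 (Spp1) to -2.42 (Trem2, SE 1.11, adjusted p = 0.334). Their median was -1.11, against -0.05 for all genes. The share of all genes below 0 was not counted, and the 10 estimates come from the same mice. Without flox MTX replicate 2 those of Spp1 (0.78) and Adgre1 (0.061) were above 0. For Lgals1, the member with the smallest p, the interaction was -1.04 (SE 0.41, 95% interval -1.93 to -0.14, adjusted p = 0.272). The term passed for Trem2 without flox MTX replicate 4 (adjusted p = 0.0975) and for Fabp5 without flox vehicle replicate 4 (adjusted p = 0.0946).

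Since macrophage RNA as a whole differed between mice, each member was also read as a log2 ratio to Adgre1 within its own library, which removes depth and the length of the genes from any difference. The ratios were compared between genotypes with the mean of the differences under vehicle and under MTX, and between treatments likewise, by an exact two-sided permutation test within strata (400 arrangements, smallest p = 0.005, 9 ratios for each of both contrasts, p not adjusted). Gpnmb rose beyond Adgre1 in KO mice: its log2 ratio was 1.81, 1.33 and 1.07 in flox vehicle, 2.62, 3.01 and 3.61 in KO vehicle, 1.49, 1.75 and -0.52 in flox MTX and 2.14, 2.48 and 2.20 in KO MTX mice. The difference was 1.52 (exact permutation p = 0.005), and KO mice lay above flox mice under both treatments without overlap. Trem2 differed by 0.87 (exact permutation p = 0.04), mostly under vehicle, where the ratio was -0.09, -0.27 and -0.50 in flox and 0.98, 1.08 and 1.56 in KO mice. Under MTX the Trem2 ratio was 0.09, 0.48 and -0.93 in flox and 0.06, 0.23 and 0.13 in KO mice, which overlap.

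Fabp5 and Lgals1 fell against Adgre1 in KO mice, by 1.48 (exact permutation p = 0.02) and 2.39 (exact permutation p = 0.005) on the log2 scale. Cd9, Lgals3, Capg, Plin2 and Spp1 had differences between -0.88 (Plin2, exact permutation p = 0.065) and 0.74 (Spp1, exact permutation p = 0.16).

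**Figure D4:**
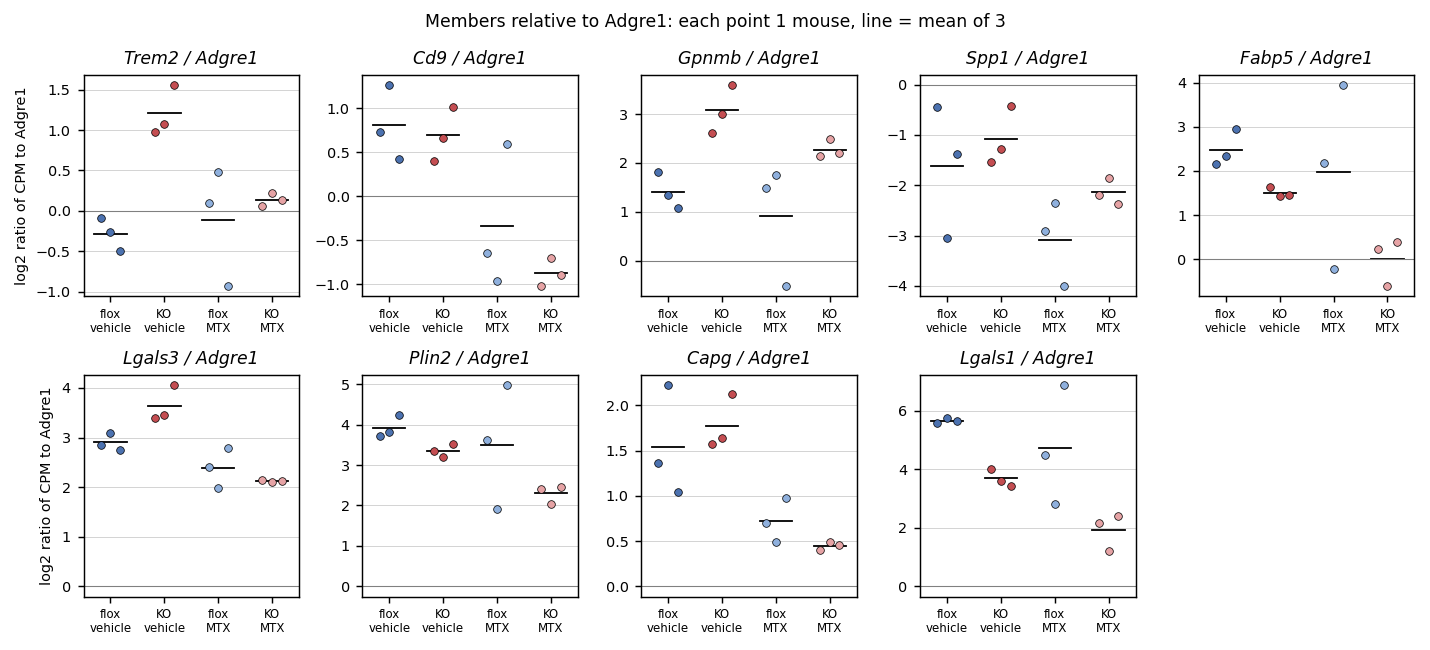
Log2 ratio of CPM to that of Adgre1 in the same library for the other 9 genes, 1 point per mouse with a line at the mean of 3. Gpnmb lies higher in KO than in flox mice under both treatments, Lgals1 lies lower, and Capg lies lower with MTX in both genotypes.

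The denominator decided some of these. With Csf1r, with Cd68 or with the mean of the 15 macrophage markers in place of Adgre1, all 3 chosen after seeing the data, the genotype difference of Gpnmb was 2.01, 0.74 and 2.03 (exact permutation p = 0.005, 0.015 and 0.005) and that of Lgals1 -1.90, -3.17 and -1.88 (exact permutation p = 0.005, 0.005 and 0.01). The genotype difference of Trem2 was 1.36 and 1.38 with Csf1r and the mean of markers (exact permutation p = 0.01 and 0.005) but 0.09 with Cd68 (exact permutation p = 0.635). Cd68 is in the lists of further LAM genes and of macrophage markers alike, and Adgre1 is itself a member. That of Lgals3 took both signs, 0.73, -0.55 and 0.75.

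With MTX, Capg (-1.07, exact permutation p = 0.005), Cd9 (-1.35, exact permutation p = 0.01), Lgals3 (-1.01, exact permutation p = 0.01) and Spp1 (-1.26, exact permutation p = 0.03) fell against Adgre1. The Capg ratio was 1.57, 1.63 and 2.12 in KO vehicle and 0.40, 0.49 and 0.46 in KO MTX mice. Adgre1 itself was higher with MTX against Csf1r (0.55, exact permutation p = 0.03), against Cd68 (0.76, exact permutation p = 0.025) and against the mean of markers (0.54, exact permutation p = 0.03). Against Csf1r, Cd9 (-0.80), Capg (-0.52) and Lgals3 (-0.46) still fell (exact permutation p = 0.005, 0.03 and 0.015), and against Cd68 they did not pass (-0.59, -0.31 and -0.25).

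Over the 12 libraries the 45 pairs of members had a median Pearson correlation of log2 CPM of 0.88, as a description of libraries that share 4 groups. Trem2 and Gpnmb (0.99), Lgals3 and Capg (0.99) and Cd9 and Lgals3 (0.98) ran closest together. Lgals1 stood apart, between -0.06 and 0.09 with Trem2, Cd9, Gpnmb, Spp1, Lgals3, Capg and Adgre1, yet at 0.73 with Fabp5, and Fabp5 was nearest to Plin2 (0.90). The genes outside the list with the most similar pattern were Atf3, Nceh1 and Hpgds for Trem2 (0.995 to 0.997), Adam8, Csf2rb2 and Gm17749 for Gpnmb (0.994 to 0.995), Matk, Spi1 and Igsf6 for Lgals3 (0.994 to 0.998) and Tlr8, Laptm5 and Mpeg1 for Adgre1 (0.988 to 0.995). For Cd9 they were Ccl3, Tcirg1 and Gm49339 (0.989 to 0.990), for Capg Evl, Renbp and St6galnac4 (0.995 to 0.996), for Spp1 Btnl1, Nav1 and Tmem171 (0.97 to 0.98) and for Plin2 Rgs19, Gna12 and Ctsd (0.98 to 0.99). Fabp5 had Slc39a1, Cmip and Zfp385a (0.97) and Lgals1 had Etfb, Dynlrb1 and 1700021F05Rik (0.96 to 0.97). All are Pearson correlations over 12 libraries.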

How the data were processed

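RNA of eWAT from 12 mice was sequenced as 1 library per mouse (3 mice in each of 4 groups), and groups were taken from the sample labels. The authors deposited whole read counts per Ensembl gene, without normalization. Per the labels' processing notes, reads were trimmed with Trimmomatic 0.36, aligned to GRCm38 with STAR 2.5.2b and counted with featureCounts of Subread 1.5.2. The strand setting and the handling of reads with several places are not given in the sources used here, and the methods (ribosomal depletion, shorter reads) and labels (poly-A RNA, longer reads) disagree on the library, so which applies is unknown.

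Testing used edgeR 4.0.16 under R 4.3.3, with TMM factors, filterByExpr by group (18702 of 49315 genes), 1 coefficient per group over the 12 libraries, and a quasi-likelihood F-test, adjusted by Benjamini-Hochberg across the genes tested. Genes were called at adjusted p below 0.1 and at least 1.5-fold. Intervals are 95% intervals from the same fit. Log2 CPM for ratios and correlations used a prior count of 2. On data simulated for KO against flox under vehicle with 18702 genes, 88 of 100 genes changed 4-fold and 13 of 100 changed 2-fold were called, with 5 calls among the unchanged genes. The simulation gave every gene the same dispersion (0.100) and changed only those genes, whereas 5924 were called in the data. Its rates therefore need not hold for the real comparison. DESeq2 1.42.0, other scaling, other filters, the 6 libraries of a comparison alone, a replicate block and each library left out were tried as alternatives.

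The members and the 23 other gene lists were chosen with earlier results of these data known, so their counts are descriptions beside those of all genes. The text names all members, any gene of the further LAM, TREM2 and osteopontin receptor lists, at most the 4 most abundant genes of each other list, and the 3 genes most correlated with each member. Tyr, Cd37, Cd53, Cd82, Tspan4, Scin, Calcr and Oscar were named outside this rule, after their values were seen. Littermates matched by cage were used per the methods, but the labels give neither litter nor cage, so no such link entered the tests.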

Additional observations from a re-analysis of the deposited data

Results flagged for a closer look

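Lgals1 moved in opposite directions in both genotypes and in both treatments. With MTX, every flox mouse was above the mean of the flox vehicle mice (mean difference 0.73 in log2 CPM) and every KO mouse was below the mean of the KO vehicle mice (-0.33). Equally, every KO vehicle mouse was above the flox vehicle mean (0.52) and every KO MTX mouse below the flox MTX mean (-0.54). The interaction term tests both patterns at once and did not pass (-1.04, adjusted p = 0.272 over all genes).

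The ratios of Lgals3 and Capg to Adgre1 also changed sign between the treatments, every KO mouse lying above the flox mean under vehicle (0.74 for Lgals3, 0.24 for Capg, in log2) and below it under MTX (-0.26 and -0.27). These differences between treatments were not tested.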

How the results depend on the processing

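In KO against flox mice under vehicle, 8 or 9 of the 10 members passed in each alternative tried, and 3026 genes had a log2 fold change of at least 1.5 where 5924 passed at 1.5-fold. Under MTX, the counts of members and genes were 6 and 2769 with DESeq2, 2 and 875 without a filter on low counts, 2 and 1491 where each library had to hold 10 counts or more, and 0 and 4 in a fit of the 6 libraries alone; with 1 library left out they ran from 0 to 8 members and 0 to 4064 genes. For MTX in flox mice, where 6 members and 4528 genes passed, they were 2 and 2791 at a log2 fold change of at least 1.5, 3 and 2198 under the limit of 10 counts, 3 members with library size as the only scaling, 0 and 2167 with the 6 libraries alone, and 0 to 7 and 2219 to 5995 with 1 library left out. For MTX in KO mice, 281 genes passed with DESeq2, 20 without a filter, 3 with the 6 libraries alone and 0 to 215 with 1 library left out. The interaction passed in 1248 genes with DESeq2, 472 without a filter, 1 under the limit of 10 counts, and 5 to 1371 genes and 0 to 1 member with 1 library left out. The cause of these shifts was not tested.

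The replicate numbers showed no sign of pairing mice: over 12 pairs with the same number the median correlation of deviations was 0.04 (lowest -0.27), against 0.01 in 42 other pairs. Links by litter or cage, which the labels do not give, are not excluded by this. With a replicate block, 8 members passed under vehicle (Spp1 was lost, adjusted p = 0.27), 0 members and 2771 genes passed for MTX in flox mice and 0 genes for the interaction, and signs turned for Lgals3 with MTX in KO mice (0.018) and the Spp1 interaction (0.55).

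With 1 library left out, log2 fold changes that crossed 0 were those of Fabp5 in KO against flox under MTX (-0.13 to 0.63), Spp1 with MTX in flox mice (-0.50 to 1.42), the MTX changes in KO mice of Spp1 (-0.10 to 0.93), Capg (-0.16 to 0.46), Cd9 (-0.47 to 0.22), Fabp5 (-0.19 to 0.070) and Lgals3 (-0.37 to 0.30), and the interactions of Spp1 (-1.14 to 0.78) and Adgre1 (-1.21 to 0.061). Ratios to Adgre1 that changed sign or side of the threshold in the exact permutation test were, for genotype, Spp1 (0.38 to 1.04), Capg (-0.14 to 0.15), Plin2 (-1.28 to -0.52), Trem2 (0.67 to 1.03) and Fabp5 (-2.02 to -0.98) and, for MTX, Spp1 (-1.62 to -0.96), Trem2 (-0.60 to -0.25), Gpnmb (-0.86 to -0.29), Fabp5 (-1.501 to -0.46), Plin2 (-1.10 to -0.33) and Lgals1 (-1.88 to -0.87).

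With other denominators, chosen after seeing the data, the ratios that changed sign or side for genotype were, with Csf1r, Capg (0.47), Cd9 (0.16), Fabp5 (-0.98) and Lgals3 (0.73), with Cd68, Capg (-0.80), Cd9 (-1.11), Lgals3 (-0.55), Plin2 (-1.67), Spp1 (-0.042) and Trem2 (0.090), and with the mean of 15 markers, Capg (0.49), Cd9 (0.18), Fabp5 (-0.96) and Lgals3 (0.75). For MTX they were, with Csf1r, Spp1 (-0.71) and Trem2 (0.10), with Cd68, Capg (-0.31), Cd9 (-0.59), Gpnmb (0.11), Lgals3 (-0.25), Plin2 (0.032), Spp1 (-0.50) and Trem2 (0.31), and with the mean of markers, Spp1 (-0.72) and Trem2 (0.089). Over all results and alternatives 1879 values kept their direction and side of the threshold.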
